A study of Mus musculus with 7 samples.

Results

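Transcripts of the MHC class I pathway were followed across the cell types of the mouse pancreas as single-cell UMI counts. The set holds 10 genes chosen by name from the 33864 genes listed in the count tables, all 10 of which are listed: the heavy chains H2-K1, H2-D1 and H2-T23, the light chain B2m, the peptide transporter subunits Tap1 and Tap2, the loading chaperone Tapbp, the immunoproteasome subunits Psmb8 and Psmb9 and the transactivator Nlrc5. Each gene was read in every library and under every cell label of the deposited annotation, with most weight on non-immune labels, because natural killer (NK) cells meet these cells as possible targets.

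The 7 libraries came from 7 C57BL/6 mice aged 2 months, 1 library per mouse. WT mice (n = 2) and i4F-B mice (n = 3), called i4F, drank doxycycline at 1 mg/ml with 7.5% sucrose for 7 days. i4F-B mice, made on a C57BL/6J.Ola.Hsd background, are heterozygous for a ubiquitous, doxycycline-driven construct in Pparg that encodes the factors OCT4, SOX2, KLF4 and c-MYC, and for the rtTA transactivator in Rosa26. Further wild-type mice (n = 2), the caerulein group, received caerulein, a cholecystokinin analogue that causes mild acute pancreatitis, at 100 µg/kg in 7 injections a day on 2 days. No doxycycline is listed for the caerulein mice and no vehicle-injected mice were analysed here, so a difference between caerulein and WT mice also spans doxycycline and sucrose. Levels are in CPM, a gene's UMIs per 1000000 UMIs of 1 mouse and class. Since the assay tags transcript 3′ ends, levels are compared within a gene and not between genes.

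Class I molecules show peptides from inside the cell at its surface. The immunoproteasome cuts the peptides, TAP carries them into the endoplasmic reticulum, and tapasin, encoded by Tapbp, holds the heavy chain and B2m ready for loading. Interferons and NLRC5 raise transcription of these genes together. Inhibitory receptors of NK cells read H2-K1 and H2-D1 directly, and another reads a class I peptide held by the non-classical molecule of H2-T23. A cell with little class I at its surface is therefore less protected from NK cells.

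Promoter sequences are shown because these genes are known to share interferon-responsive elements. RefSeq promoter sequences (GRCm38.p6) matched 8 of the 10 genes, and motifs were searched in the 250 bases before each start on both strands. B2m (chromosome 2, 122147687 to 122153082) held the interferon response core GAAANNGAA, the kappa B site GGGACTTTC and CCAAT. In the 180 bases before its start, at chr2:122147507-122147686 on the plus strand, the matches are in capitals.
B2m: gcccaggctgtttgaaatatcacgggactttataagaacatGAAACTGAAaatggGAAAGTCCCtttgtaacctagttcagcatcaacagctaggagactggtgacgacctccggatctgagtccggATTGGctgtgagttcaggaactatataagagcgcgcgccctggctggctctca
H2-K1 and H2-D1 did not hold GAAANNGAA, but both held GAANNGAAA, a pattern added after their sequences were seen, within 29 bases that are nearly the same in both genes. H2-T23 held GAAANNGAA. The following sites are at chr17:34000419-34000447 (minus strand), chr17:35262934-35262962 (plus strand) and chr17:36032806-36032834 (minus strand), with the match in capitals and 10 bases on each side. The H2-K1 site lies 90 or 104 bases before the 2 starts of the promoter table, which are inside the gene range that RefSeq gives (33996012 to 34000619), so it is also within that range.
H2-K1: atctccacagTTTCACTTCtgcacctaac
H2-D1: atctcctcagTTTCACTTCtgcacctaac
H2-T23: tcctactgctTTCTCTTTCataaagacac
GAAANNGAA was present in 7.12% of the 32817 promoters of the table, GAANNGAAA in 6.31%, GGGACTTTC in 0.289% and CCAAT in 33.8%. CCAAT was found in 7 of the 8 members, all but Psmb8, with 1 site counted for both Tap1 and Psmb9, and the gamma-activated site TTCNNNGAA (7.01% of promoters) in Psmb8 alone. GAAANNGAA and GAANNGAAA can overlap each other in a promoter. Tap1 (chromosome 17, 34187556 to 34197225) and Psmb9 (34182030 to 34187330) are neighbours that point away from each other, so their searched windows overlap.

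The libraries held 4327 to 15138 cells and 15469018 to 64784216 UMIs, and 366 cell barcodes occurred in more than 1 library. The library labelled i4F 3 stands apart from the other i4F libraries. In stellate cells it carried 41.6 CPM of the rtTA transgene, near the 43.9 and 48.2 CPM of i4F 1 and 2 and against 0 to 0.749 CPM in the other 4 libraries, but it gave 0 UMIs of Pou5f1 (Oct4), where i4F 1 and 2 carried 2.49 and 4.75 CPM and WT mice 0.562 and 0.219 CPM. The counts of members called and the shares of cells without class I are therefore also given without it, except in NK/T cells and under single labels, where each mouse is shown. The fits of activated labels and of the pathway list hold all 7 mice. Of the acinar markers, only Amy2a5 is listed. In the acinar class it reached 2196 and 5420.5 CPM in WT, 107, 292 and 2342 CPM in i4F and 102 and 45.4 CPM in caerulein mice, while 8 ductal markers summed to 2484 and 1629.5 CPM in WT, 12160.0, 9715 and 3798 CPM in i4F and 13576 and 15336 CPM in caerulein mice, so the acinar class of every treated mouse carried more of the ductal markers than that of either WT mouse. Ductal, stellate and endothelial classes each held all 8 of their markers. The acinar genes Cpa1, Cela1, Cela2a, Cel, Ctrb1, Pnlip and Cpb1 and the endocrine genes Ins1, Ins2 and Gcg are not listed. CPM in acinar and endocrine cells are therefore taken over UMIs without these genes. This bears on comparisons of these classes with others and of acinar cells between groups. Caerulein mice have no NK/T label, and their cells labelled B lymphocytes carried 93.1 and 107 CPM of 4 B cell markers against 3703 to 5512 CPM in WT and i4F mice, so that label is described by level only.

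In WT mice endothelial cells carried the highest mean level of each of the 10 members among the non-immune classes. H2-K1, a classical heavy chain (chromosome 17, 33996012 to 34000619), was highest in NK/T cells with 5233 and 3882 CPM in the 2 mice and in endothelial cells with 3982 and 2647 CPM. These ranges overlapped. Mesothelium (2077 and 2011 CPM), B cells (2182 and 1711 CPM) and macrophages (1638 and 1242 CPM) followed. Mesothelium and B cells overlapped. Lymphatic endothelium (914 and 980.5 CPM), ductal cells (845 and 726 CPM), endocrine cells (732 and 585 CPM) and stellate cells (622 and 508 CPM) came next, where ductal and endocrine cells overlapped and so did endocrine and stellate cells. Acinar cells, the enzyme-secreting cells that make up most of the pancreas, were lowest with 366 and 276 CPM.

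H2-D1, the other classical heavy chain (chromosome 17, 35263094 to 35267497), had the same top and bottom. It reached 4784 and 4147 CPM in WT NK/T cells and 4742 and 4009 CPM in endothelial cells, which overlapped, and 1084 and 1045 CPM in stellate, 802 and 804 CPM in ductal, 525 and 501 CPM in endocrine and 267 and 324 CPM in acinar cells, which did not overlap. H2-T23, which encodes the non-classical molecule Qa-1 (chromosome 17, 36029977 to 36032701), ranged from 559 and 374 CPM in endothelial to 11.7 and 6.12 CPM in acinar cells. Lymphatic endothelium (385 and 201 CPM) overlapped with blood endothelium for this gene. B2m was at 2822 and 1730.1 CPM in endothelial, 965 and 613 CPM in stellate, 259 and 208 CPM in ductal, 117 and 126 CPM in acinar and 79.0 and 99.6 CPM in endocrine cells, none of which overlapped. In a model with the mouse as a block, the level differed among acinar, ductal, stellate and endothelial cells of WT mice for all 10 members, where 74.7% of all genes tested differed (edgeR's quasi-likelihood F-test with 3 degrees of freedom, Benjamini-Hochberg adjustment). Relative to acinar cells, WT endothelial cells were higher by 4.87 (log2) for H2-T23, 3.88 for Psmb9, 3.88 for Tap1, 3.34 for B2m, 3.05 for H2-D1 and 2.51 for H2-K1.

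**Figure D1:**
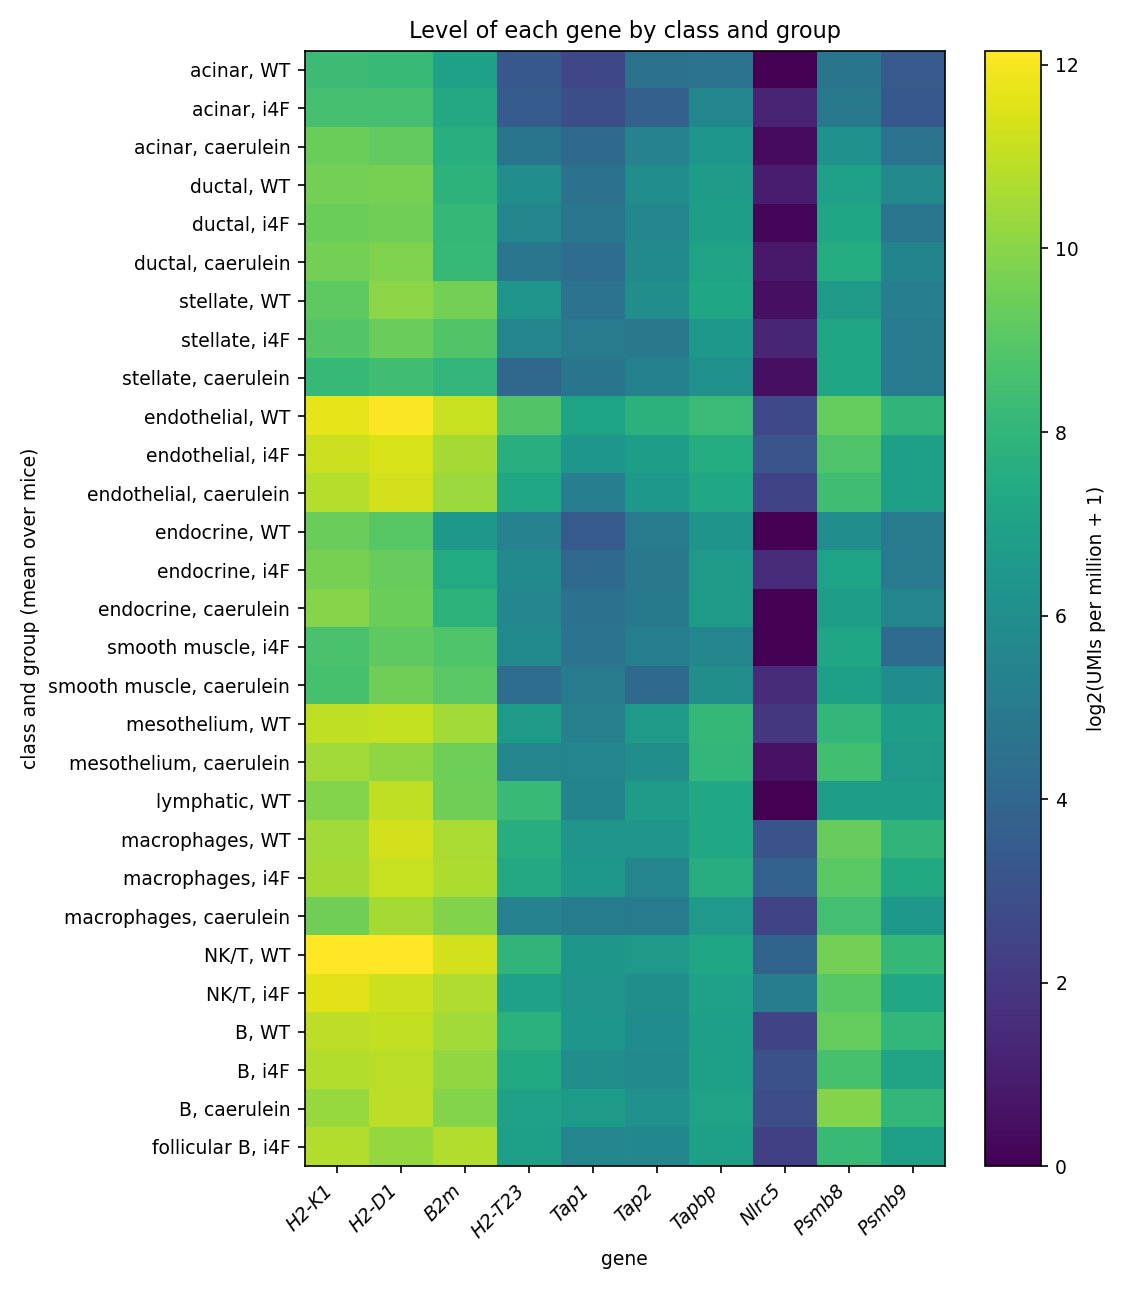
Mean level of each of the 10 genes over the mice of a group, as log2(CPM + 1) in colour, for each class (rows) with at least 20 cells in a mouse. The endothelial and NK/T rows are bright in every group that has them, and the acinar rows are dark in WT and i4F mice. After caerulein the acinar row is above the stellate row for H2-K1 (694 against 278 CPM), H2-D1, H2-T23 and Tapbp. Nlrc5 is the darkest column, with its highest mean in NK/T cells of i4F mice (33.2 CPM).

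The main comparison asked whether class I genes differ between treated and WT mice in the cells that NK cells could meet. With all 7 mice, none of the 36 pairs of member and non-immune class (9 members in 4 classes, as Nlrc5 failed the filter on low counts) passed an adjusted p of 0.05 in either comparison (edgeR's quasi-likelihood test, Benjamini-Hochberg adjustment). DESeq2 also called 0 pairs for i4F mice and called 3 for caerulein mice, acinar Tapbp, stellate B2m and stellate H2-T23. It called 5.4% and 5.93% of all gene and class pairs in the 2 comparisons. DESeq2 was run without the filter on low counts, on 99579 pairs against 45724 with edgeR. Its shares here and below therefore include rarely detected genes and are not on the scale of edgeR's shares. At an unadjusted p under 0.05 there were 4 of 36 pairs for i4F and 14 for caerulein mice. Of all gene and class pairs, 27.0% and 29.4% did so. Over all genes, the i4F comparison called 0.0808% in acinar, 0.00861% in ductal, 20.6% in stellate and 0.81% in endothelial cells, and the caerulein comparison 0.0359%, 3.53%, 17.1% and 4.11%.

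Without i4F 3, more was called among members and among all genes alike. The i4F comparison then called 19 of 37 pairs: 2 in acinar cells (32.7% of all genes called), 1 in ductal cells (26.5%), 8 in stellate cells (47.8%) and 8 in endothelial cells (14.3%). Of these, 7 stellate and all 8 endothelial pairs were lower in i4F mice, the direction of 23.8% of all genes in stellate and 6.86% in endothelial cells. The caerulein comparison, whose mice are the same but whose spread was then estimated without i4F 3, called 16 pairs: 2 in acinar cells (19.4% of all genes), 2 in ductal cells (32.2%), 6 in stellate cells (39.7%) and 6 in endothelial cells (11%). Lower were 5 of the stellate pairs (20.4% of all genes lower) and all 6 endothelial pairs (4.24%). Both comparisons share the WT mice.

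**Figure D2:**
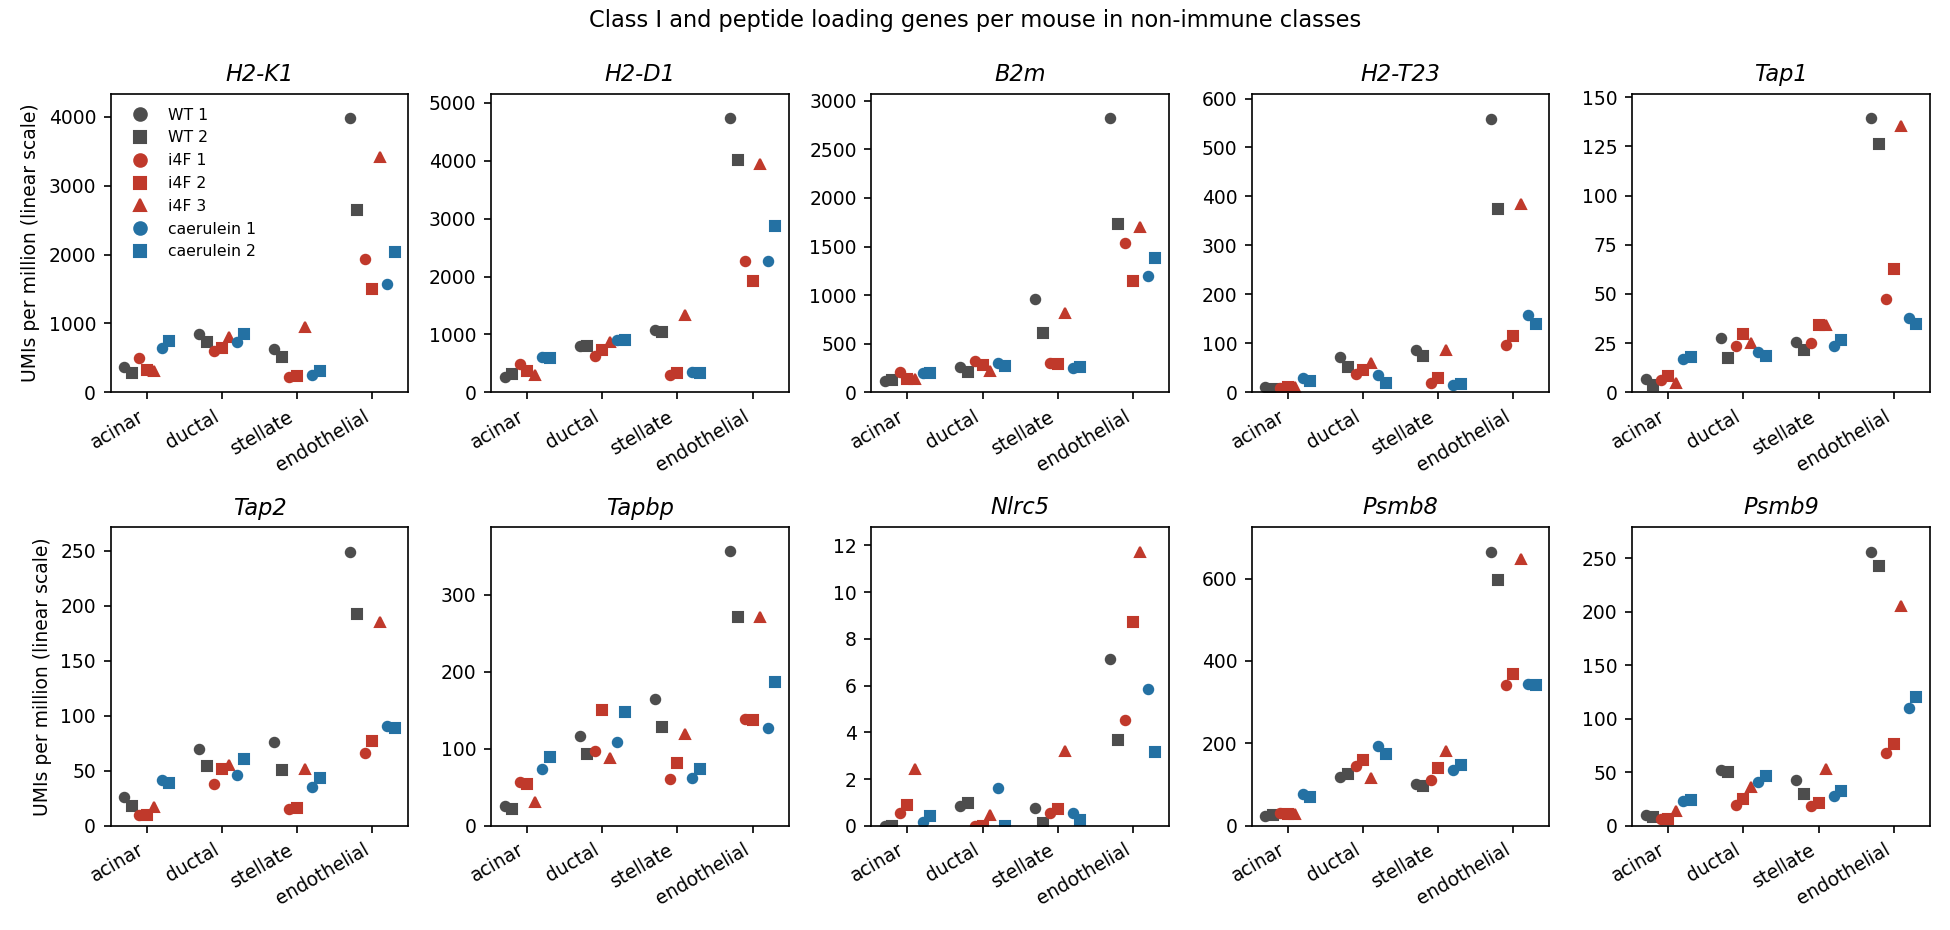
Level of each gene in CPM (linear scale from 0, 1 panel per gene) in acinar, ductal, stellate and endothelial cells, with 1 point per mouse, grey for WT, red for i4F and blue for caerulein. In stellate and endothelial cells the i4F 3 triangle lies near the WT points for the heavy chains, while i4F 1, i4F 2 and both caerulein mice lie lower.

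The heavy chains had lower levels in endothelial and stellate cells of the treated mice outside i4F 3, though with all 7 mice none passed with edgeR, and DESeq2 called only H2-T23 in stellate cells of caerulein mice. In endothelial cells H2-D1 was at 4742 and 4009 CPM in WT, 2273, 1932 and 3939 CPM in i4F and 2268 and 2866 CPM in caerulein mice. WT mice and i4F 3 were high, and every other treated mouse lay below them. The log2 difference from WT was −0.59 (SE 0.34, adjusted p = 0.382) for i4F mice, −1.02 (SE 0.22, adjusted p = 0.0207) without i4F 3, and −0.68 (SE 0.37, adjusted p = 0.344) for caerulein mice. H2-K1 followed the same pattern with 3982 and 2647 CPM in WT, 1942, 1504 and 3423 CPM in i4F and 1572 and 2038 CPM in caerulein mice, and fell in i4F mice without i4F 3 by 0.90 (SE 0.25), with an adjusted p of 0.0485. The caerulein difference of H2-K1, −0.78 (SE 0.41), did not pass with i4F 3 (adjusted p = 0.329) or without it (0.0823).

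H2-T23, whose product shows a class I peptide to the NK receptor CD94/NKG2A, had larger fitted differences than H2-K1 and H2-D1 in endothelial and stellate cells. Endothelial cells carried 559 and 374 CPM in WT, 97.6, 115 and 385 CPM in i4F and 159 and 139.7 CPM in caerulein mice. In 4 of the 5 treated mice the level was below both WT mice, and i4F 3 lay between them. The difference was −1.09 (SE 0.55, adjusted p = 0.323) for i4F mice, −2.08 (SE 0.26, adjusted p = 0.00299) without i4F 3, and −1.52 (SE 0.62, adjusted p = 0.214) for caerulein mice, which passed when the spread was estimated without i4F 3 (adjusted p = 0.00662).

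In stellate cells, the matrix-producing mesenchymal cells of the pancreas, H2-D1 was at 1084 and 1045 CPM in WT, 292, 341 and 1342 CPM in i4F and 348 and 342 CPM in caerulein mice. The groups of WT and caerulein mice did not overlap, whereas i4F 3 lay above WT and the other i4F mice far below. The difference was −0.52 (SE 0.64, adjusted p = 0.569) for i4F mice, −1.61 (SE 0.16, adjusted p = 0.000493) without i4F 3, and −1.47 (SE 0.73, adjusted p = 0.175) for caerulein mice (adjusted p = 0.00108 with the spread estimated without i4F 3). Stellate H2-T23 was at 86.2 and 74.0 CPM in WT, 18.4, 30.2 and 85.4 CPM in i4F and 15.3 and 16.1 CPM in caerulein mice, and its caerulein difference of −2.19 (SE 0.67) was the closest to the threshold in this class (adjusted p = 0.0629, 0.00101 without i4F 3). DESeq2 called it with all 7 mice. Stellate H2-K1, with 622 and 508 CPM in WT, 217, 239.6 and 953 CPM in i4F and 250.4 and 305 CPM in caerulein mice, also had i4F 3 above both WT mice and the 4 other treated mice below them, with a difference of −0.08 (SE 0.64, adjusted p = 0.934) for i4F and −0.87 (SE 0.71, adjusted p = 0.387) for caerulein mice (adjusted p = 0.00119 and 0.00488 without i4F 3).

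In acinar cells the heavy chains had higher levels after caerulein than in WT, though none passed. H2-K1 was at 366 and 276 CPM in WT, 491, 324 and 313 CPM in i4F and 638 and 751 CPM in caerulein mice in acinar cells. Both caerulein mice lay above every other mouse, but i4F mice overlapped with WT. H2-D1 (613 and 601 CPM after caerulein against 267 and 324 CPM in WT) and H2-T23 (28.7 and 22.3 against 11.7 and 6.12 CPM) did the same. The fitted differences after TMM normalization were 0.52 (SE 0.37, adjusted p = 0.437) for H2-K1, 0.45 (SE 0.34, adjusted p = 0.463) for H2-D1 and 0.95 (SE 0.49, adjusted p = 0.294) for H2-T23. Scaled by library size alone, the median of all acinar genes was itself higher after caerulein by 0.69 (log2), against 0.10 with TMM, and the median of the 9 members by 1.31, against 0.72. The acinar class of caerulein mice also carried more ductal markers and less Amy2a5 than that of WT mice. Their part in these differences was not tested. In ductal cells H2-K1 and H2-D1 overlapped between groups or lay close (H2-K1 845 and 726 CPM in WT, 606, 647 and 808 CPM in i4F and 736 and 848 CPM in caerulein mice, and H2-D1 802 and 804 CPM in WT, 627, 725 and 861 CPM in i4F and 905 and 899 CPM in caerulein mice). Ductal H2-T23 was lowest after caerulein, at 34.7 and 18.5 CPM against 71.2 and 51.8 CPM in WT and 36.4, 45.6 and 59.7 CPM in i4F mice, a difference of −0.97 (SE 0.37, adjusted p = 0.124) that fell just within the threshold without i4F 3 (adjusted p = 0.0473). Without cells that held a leukocyte UMI, ductal H2-T23 was at 65.1 and 51.6 CPM in WT and 73.9 and 12.5 CPM in caerulein mice. Caerulein 1 was then above WT, from only 15 UMIs in 62 cells.

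B2m, the light chain that every class I heavy chain needs to reach the surface, followed the heavy chains. In stellate cells it was at 965 and 613 CPM in WT, 298, 293 and 816 CPM in i4F and 251 and 258 CPM in caerulein mice. i4F 3 lay between the WT mice and the 4 other treated mice lay below both. The caerulein difference was −1.46 (SE 0.55, adjusted p = 0.0975), called by DESeq2 with all 7 mice and by edgeR without i4F 3 (adjusted p = 0.00212), and the i4F difference was −0.56 (SE 0.48, adjusted p = 0.408), or −1.26 (SE 0.19, adjusted p = 0.00247) without i4F 3. Endothelial B2m was at 2822 and 1730.1 CPM in WT, 1538, 1145 and 1699 CPM in i4F and 1199.6 and 1378 CPM in caerulein mice, so that the WT mice differed from each other by more than WT 2 did from any treated mouse, and neither comparison passed with or without i4F 3. Acinar B2m reached 117 and 126 CPM in WT, 207, 137 and 139 CPM in i4F and 203 and 203 CPM in caerulein mice, with the fitted caerulein difference 0.15 (SE 0.35, adjusted p = 0.827) the smallest of the 9 members in this class. Ductal B2m was at 259 and 208 CPM in WT, 323, 281 and 223 CPM in i4F and 297 and 274 CPM in caerulein mice, and 0.47 (SE 0.28, adjusted p = 0.276) was its caerulein difference.

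Tap1 and Tap2 (chromosome 17, 34204479 to 34216321) encode the subunits of the TAP transporter and did not move as a pair in every class. In endothelial cells they did: Tap1 was at 139 and 126 CPM in WT, 47.6, 62.7 and 135 CPM in i4F and 37.7 and 34.9 CPM in caerulein mice and Tap2 at 249 and 192 CPM in WT, 65.8, 76.6 and 185 CPM in i4F and 90.6 and 88.9 CPM in caerulein mice. i4F 3 was at or near the level of WT for both genes and the other treated mice were lower by more than the spread of the WT mice. The endothelial caerulein difference of Tap1, −1.74 (SE 0.49, adjusted p = 0.0916), was the largest of any member in this class, and both genes passed in both comparisons without i4F 3 (Tap1 −1.22, SE 0.25, adjusted p = 0.0166 for i4F and −1.74, SE 0.25, adjusted p = 0.00413 for caerulein mice). In stellate cells Tap1 was not lower, with 25.5 and 21.6 CPM in WT, 25.3, 34.3 and 34.1 CPM in i4F and 23.7 and 26.4 CPM in caerulein mice, a difference of 0.57 (SE 0.20, adjusted p = 0.0783) for i4F mice. Stellate Tap2 was lower in i4F 1 and 2, with 75.7 and 50.6 CPM in WT, 15.4, 16.5 and 51.5 CPM in i4F and 35.5 and 43.1 CPM in caerulein mice, and the difference of −1.03 (SE 0.53) became −1.83 (SE 0.18, adjusted p = 0.000444) without i4F 3. Tap2 also fell in acinar cells of i4F mice without i4F 3, from 26.1 and 18.4 CPM in WT to 9.91 and 10.1 CPM (−1.51, SE 0.32, adjusted p = 0.00570), while i4F 3 carried 16.6 CPM. Acinar Tap1 reached 16.8 and 17.8 CPM after caerulein against 6.52 and 3.67 CPM in WT and 6.23, 8.28 and 4.85 CPM in i4F mice (1.18, SE 0.45, adjusted p = 0.182). In ductal cells both genes overlapped between groups.

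Tapbp, the gene of tapasin (chromosome 17, 33919478 to 33929290), was the member closest to the threshold in acinar cells. It was at 26.1 and 22.02 CPM in WT, 56.4, 54.4 and 30.5 CPM in i4F and 74.2 and 89.6 CPM in caerulein mice there. Every treated mouse lay above both WT mice, with i4F 3 the nearest to them. The caerulein difference was 1.17 (SE 0.30, adjusted p = 0.0895), called by DESeq2, and 1.17 (SE 0.25, adjusted p = 0.00999) without i4F 3. For i4F mice it was 0.78 (SE 0.28, adjusted p = 0.148), or 0.84 (SE 0.25, adjusted p = 0.0290) without i4F 3. In endothelial cells Tapbp was lower instead in treated mice other than i4F 3, with 356 and 271 CPM in WT, 138, 137 and 271 CPM in i4F and 127 and 187 CPM in caerulein mice, and in stellate cells it was at 165 and 129 CPM in WT, 60.9, 82.1 and 119 CPM in i4F and 61.6 and 74.0 CPM in caerulein mice, with every treated mouse below both WT mice (−0.96, SE 0.33, adjusted p = 0.0792 for caerulein mice). Ductal Tapbp overlapped between groups, with 116 and 93.9 CPM in WT, 97.4, 150.4 and 87.6 CPM in i4F and 109 and 148 CPM in caerulein mice.

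Psmb8, an immunoproteasome subunit, had another order of mice than the heavy chains in stellate cells. The gene (chromosome 17, 34198195 to 34201454) was at 102 and 96.3 CPM in WT, 110.3, 140.3 and 181 CPM in i4F and 136 and 149 CPM in caerulein mice in stellate cells, so that all 5 treated mice were above both WT mice, including the 4 with low heavy chains. The difference was 0.70 (SE 0.25, adjusted p = 0.0785) for i4F and 0.67 (SE 0.26, adjusted p = 0.109) for caerulein mice, and it passed without i4F 3 in both (0.0435 and 0.0156). Stellate Psmb9, the other subunit, did not share this order, with 42.5 and 29.7 CPM in WT, 18.2, 21.6 and 53.4 CPM in i4F and 28.3 and 32.1 CPM in caerulein mice. In acinar cells Psmb8 reached 77.7 and 69.8 CPM after caerulein, where WT mice had 24.8 and 25.7 CPM and i4F mice 30.03, 29.1 and 28.4 CPM (0.96, SE 0.35, adjusted p = 0.163, and 0.0275 without i4F 3). Acinar Psmb9 was also highest after caerulein, with 10.4 and 8.56 CPM in WT, 6.80, 6.49 and 14.2 CPM in i4F and 22.7 and 24.4 CPM in caerulein mice (0.72, SE 0.68, adjusted p = 0.559). Ductal Psmb8 was likewise highest after caerulein, with 119 and 125 CPM in WT, 146, 160.3 and 117 CPM in i4F and 194 and 173 CPM in caerulein mice (0.76, SE 0.27, adjusted p = 0.1096, and 0.0168 without i4F 3). Ductal Psmb9 went the other way in i4F mice, with 19.2, 24.7 and 36.1 CPM against 51.9 and 50.2 CPM in WT, and here i4F 3 was also below both WT mice (−0.76, SE 0.28, adjusted p = 0.239, or −1.04, SE 0.23, adjusted p = 0.0129 without i4F 3). In endothelial cells i4F 1, i4F 2 and both caerulein mice lay below WT for both subunits, while i4F 3 lay between the WT mice for Psmb8 and below both for Psmb9. Psmb9 was at 256 and 243 CPM in WT, 68.1, 76.6 and 206 CPM in i4F and 109.9 and 121 CPM in caerulein mice, and Psmb8 at 665 and 596 CPM in WT, 343, 367 and 647 CPM in i4F and 345 and 343 CPM in caerulein mice.

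Nlrc5, the transactivator of class I genes (chromosome 8, 94434335 to 94527272), was detected too rarely in non-immune cells to compare between groups. Acinar cells gave 0 UMIs in both WT mice and 1 to 7 UMIs in the treated mice, ductal cells 0 to 5 UMIs and stellate cells 1 to 23 UMIs per mouse. Endothelial cells gave 7.16 and 3.66 CPM in WT, 4.54, 8.70 and 11.7 CPM in i4F and 5.87 and 3.17 CPM in caerulein mice, from 1 to 15 UMIs each. At these counts no difference between groups was detectable.

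**Figure D3:**
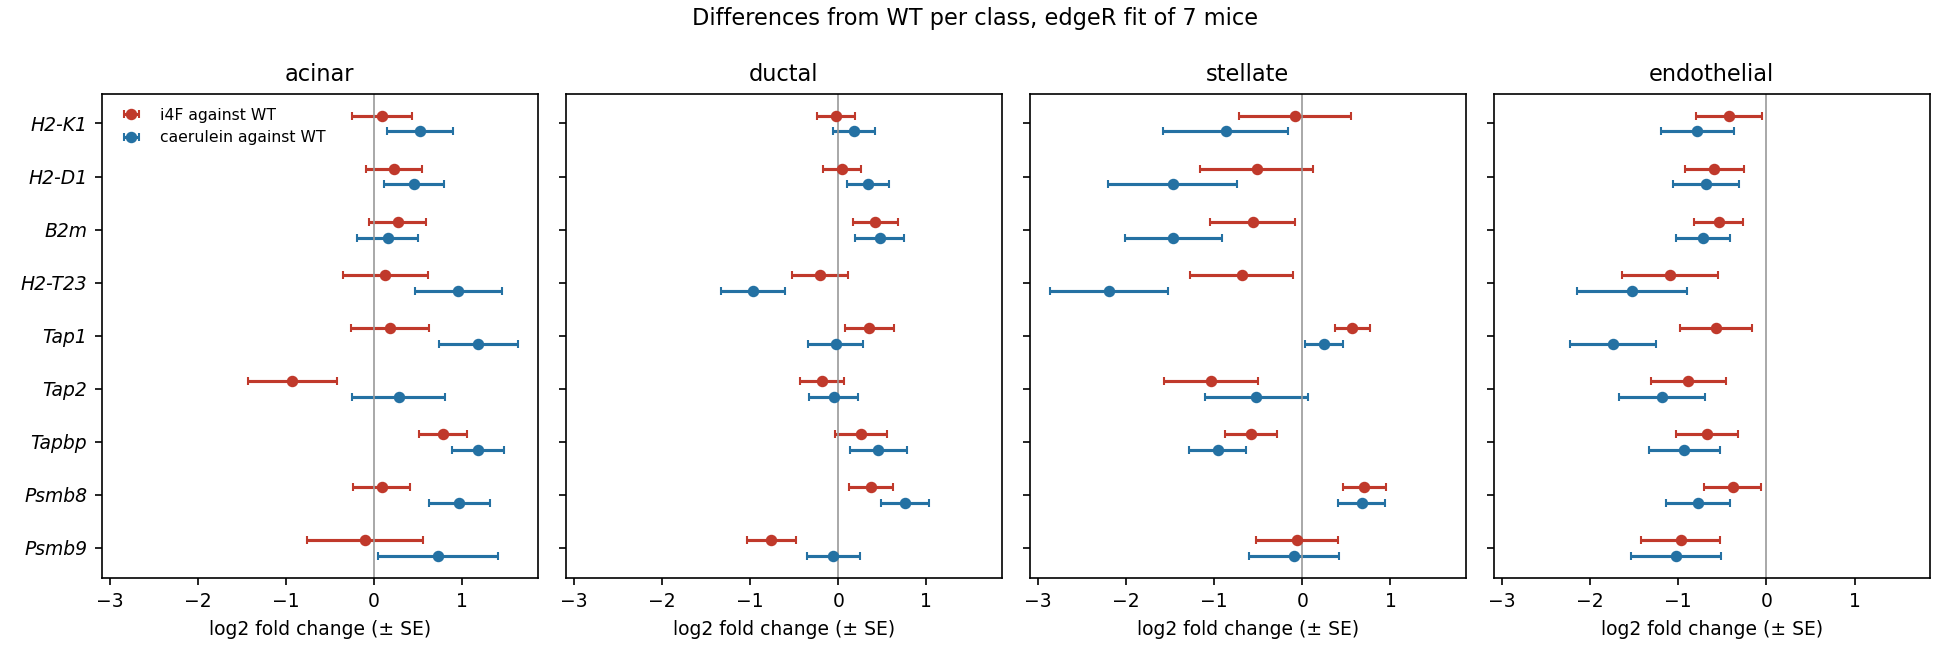
Fitted log2 difference from WT for i4F (red) and caerulein (blue) mice, with bars of 1 standard error, for 9 members in 4 classes, from all 7 mice. After caerulein all 9 points lie right of 0 in acinar cells and all 9 left of 0 in endothelial cells, and Psmb8 and Tap1 lie right of 0 in stellate cells where 7 other members lie left.

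Counted by direction over the 9 members tested in each class, the caerulein difference was higher for 9 in acinar, 5 in ductal, 2 in stellate and 0 in endothelial cells. The member medians were 0.72, 0.18, −0.87 and −0.93 (log2), where the medians of all genes tested were 0.10, −0.07, −0.04 and 0.00. For i4F mice 7, 5, 2 and 0 members were higher, with medians of 0.13, 0.04, −0.52 and −0.59 against 0.14, −0.03, 0.02 and 0.02 for all genes. With activated stellate labels alone and i4F 3 in the fit, the stellate medians of both comparisons turned sign, as given below. Without i4F 3 the i4F counts were 4 of 9 in acinar, 4 of 9 in ductal, 3 of 10 in stellate and 0 of 9 in endothelial cells, and the medians −0.01, −0.06, −1.03 and −1.14, so the acinar and ductal medians turned sign. Set against each other, i4F and caerulein mice differed in 0 of 36 pairs with all 7 mice (0.385% of all gene and class pairs called, 6 member pairs at an unadjusted p under 0.05, where 16.2% of all pairs did so, and 0 by DESeq2) and in 6 pairs without i4F 3 (10.2% called). Of these, 5 were lower in acinar cells of i4F mice: Tap2 (−1.79, SE 0.26), Psmb9 (−1.60, SE 0.28), H2-T23 (−1.11, SE 0.31), Psmb8 (−1.10, SE 0.21) and Tap1 (−1.02, SE 0.31). The other was stellate Tap2 (−1.31, SE 0.18). All i4F libraries are of the AL series of library names and all caerulein libraries of the AM series. The groups also differ in transgene and doxycycline, and these cannot be told apart here. With the series as a term, 0 of 36 pairs were called (0.00219% of all gene and class pairs).

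Whether the differences were unequal among acinar, ductal, stellate and endothelial cells was tested directly, with the mouse as a block. For caerulein mice they were unequal for 9 of the 10 members, all but Nlrc5, where 21.2% of all genes were called (39.4% without i4F 3, with the same number of members). Relative to the change in acinar cells, the endothelial change was −3.19 (log2) for Tap1 (adjusted p = 0.00160), −2.74 for H2-T23 (0.00255) and −2.37 for Tapbp (0.00328). The WT acinar levels behind such values rest on few UMIs for some members. In WT acinar cells without a leukocyte UMI (807 and 799 cells), Tap1 had 5 and 2 UMIs, H2-T23 8 and 5 and Psmb9 8 and 4. The stellate change was −3.30 relative to the acinar one for H2-T23, −2.29 for Tapbp and −2.07 for H2-D1 (adjusted p over the 3 class differences = 0.0172), and −0.43 for Psmb8. Leaving out a WT or caerulein mouse leaves 1 mouse in its group, and fewer members and fewer genes of any kind then passed. The result therefore rests on all 4 of these mice. For i4F mice 3 members were called (15.9% of all genes), Psmb9, Tapbp and Tap1, and without i4F 3 9 members (43.7% of all genes). Without i4F 1 or i4F 2 the i4F count was 0 (5.22% and 2.7% of all genes called). Leaving out a WT or caerulein mouse leaves 1 mouse in its group, and these calls were lost there as well, with fewer genes of any kind passing.

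The stellate class of WT mice is mostly cells labelled quiescent, and that of treated mice holds only labels named activated. In WT mice 828 and 1911 cells carried the label quiescent 1, 196 and 435 quiescent 2, and 114 and 161 activated. i4F 1 and 2 held 4249 and 2555 cells of a label activated 1 and 144 and 126 of activated 2, while in i4F 3 113 cells were activated 1 and 1167 were activated 2. All 3675 and 2040 stellate cells of the caerulein mice were activated 1. Each condition has its own count table with its own labels, so the same name need not mark the same cells.

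Within WT mice, H2-D1 was at 1213 and 1146 CPM in quiescent 1, 903 and 818 CPM in quiescent 2 and 487 and 570.3 CPM in activated cells. Activated 1 cells carried 272, 323, 561, 348 and 342 CPM in the 3 i4F and 2 caerulein mice in turn, and activated 2 cells 1372, 1093 and 1603 CPM in the i4F mice. The activated 2 cells of i4F 1 and i4F 2 were thus above their activated 1 cells and in or above the range of the quiescent cells of WT mice. H2-T23 showed the same split, with 101 and 81.5 CPM in quiescent 1 and 25.5 and 13.8 CPM in activated WT cells, 17.8, 28.8, 38.5, 15.3 and 16.1 CPM in activated 1 and 51.4, 89.4 and 101 CPM in activated 2 cells. B2m was at 456 and 258 CPM in activated WT cells and 287, 282, 496, 251 and 258 CPM in activated 1 cells. H2-K1 was split in the same way, with 191, 218, 490.2, 250.4 and 305 CPM in activated 1 (3 i4F, then 2 caerulein mice) against 1592, 1144 and 1108 CPM in activated 2.

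**Figure D4:**
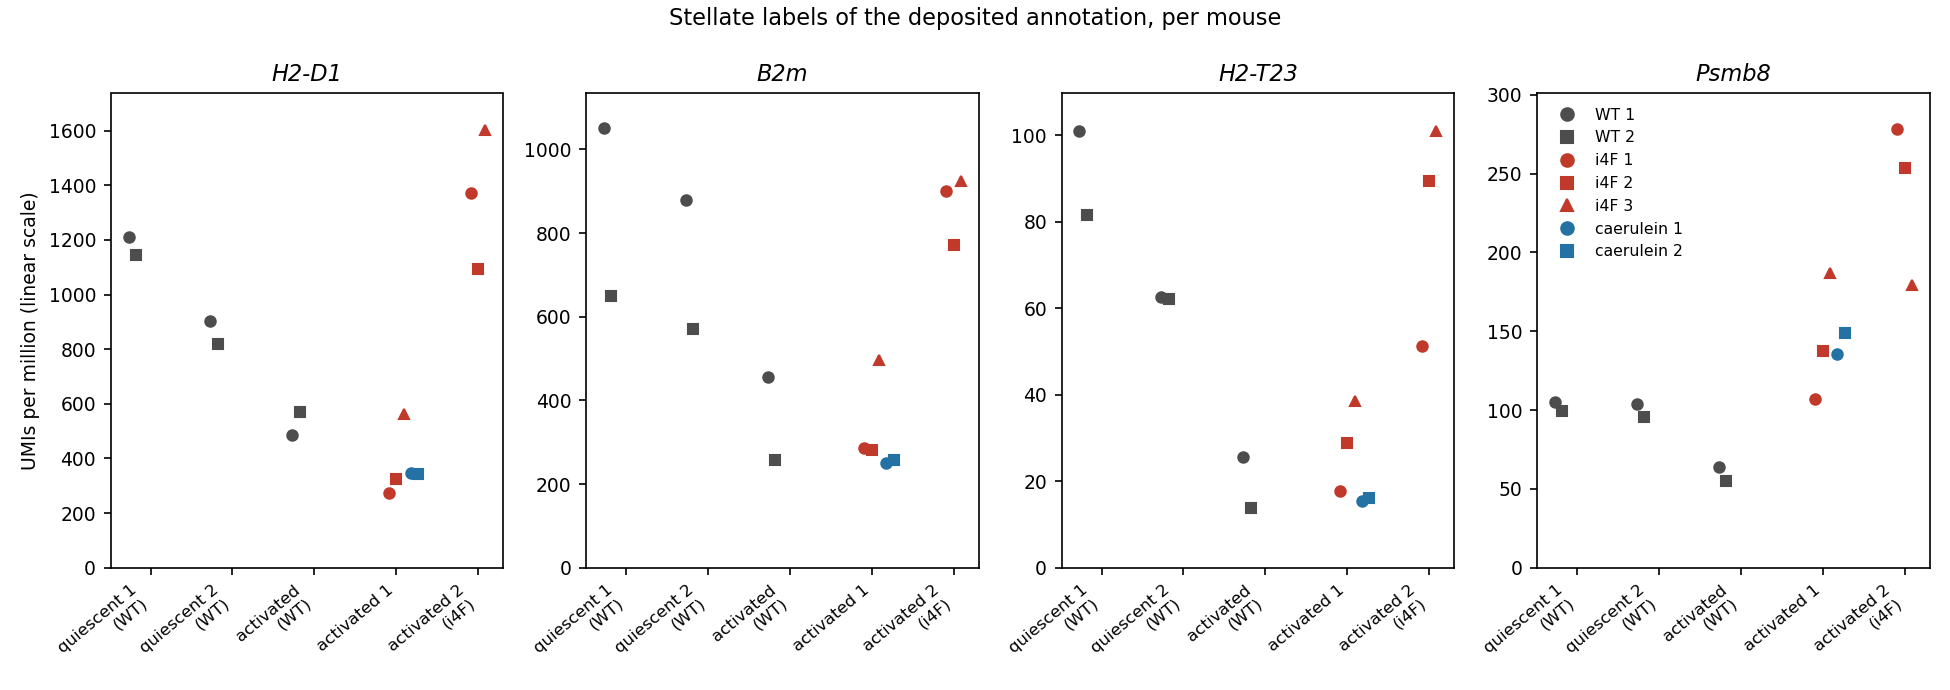
Level in CPM (linear scale from 0) of H2-D1, B2m, H2-T23 and Psmb8 under each stellate label of the deposited annotation, with 1 point per mouse. The activated cells of WT mice overlap with the activated 1 cells of treated mice for B2m and H2-T23, lie above those of every treated mouse but i4F 3 for H2-D1, and lie below every treated point for Psmb8.

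An alternative added after these values were seen took only the labels named activated in every group. Then none of the heavy chains or B2m passed. For caerulein mice H2-D1 was at −0.32 (SE 0.71, adjusted p = 0.784), H2-T23 at −0.01 (SE 0.85, adjusted p = 0.998), H2-K1 at 0.33 (SE 0.71, adjusted p = 0.779) and B2m at −0.18 (SE 0.56, adjusted p = 0.849). In i4F mice H2-D1 was at 292, 341 and 1342 CPM in these cells, against 487 and 570.3 CPM in WT, and only i4F 3 was above WT (0.64, SE 0.66, adjusted p = 0.519, with i4F 3 in the fit). What passed was Psmb8, which was higher in i4F mice by 1.58 (SE 0.29, adjusted p = 0.00985) and in caerulein mice by 1.56 (SE 0.31, adjusted p = 0.0125), and Tap1 in i4F mice (1.08, SE 0.30, adjusted p = 0.0387). These are 2 of 9 members for i4F mice, where 21.3% of all genes were called, and 1 of 9 for caerulein mice, where 21.5% were. Of the 9 members, 8 were higher in i4F mice and 5 in caerulein mice, with medians of 1.08 and 0.33 (log2). H2-K1 was at 217, 240 and 953 CPM in i4F mice against 321 and 223 CPM in WT. B2m was at 298, 293 and 816 CPM against 456 and 258 CPM, so only i4F 3 was above both WT mice for these genes. For Psmb8 and Tap1 every i4F mouse was. This fit holds i4F 3 and was not run without it. The median of all genes in this fit was 0.28 for i4F and 0.23 for caerulein mice. Psmb8 was at 63.7 and 55.2 CPM in activated WT cells and 107, 138, 187, 136 and 149 CPM in activated 1 cells. The lower heavy chains of the stellate class and the mix of its labels cannot be told apart.

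Acinar labels were also split in i4F mice, into acinar 1 (11, 61 and 2071 cells) and acinar 2 (583, 746 and 59 cells). H2-D1 was at 1654, 864 and 301 CPM in acinar 1 and 475, 356 and 296 CPM in acinar 2 cells, so the few acinar 1 cells of i4F 1 and 2 were high and those of i4F 3 were not. Endothelial labels were split in WT mice only, and both labels were above the treated mice other than i4F 3 for H2-D1, with 4893 and 4098 CPM in the first and 4044 and 3057 CPM in the second.

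Cells without a class I transcript were counted after each cell was thinned to 1000 UMIs. The share of cells with no UMI of H2-K1, H2-D1 or B2m was 10.2% and 16.0% in WT, 48.6%, 43.5% and 10.8% in i4F and 46.1% and 43.1% in caerulein mice for stellate cells. Both caerulein mice, i4F 1 and i4F 2 stood above WT, and i4F 3 lay between the WT mice. WT stellate cells were mostly labelled quiescent and those of treated mice only activated. The share was not counted under activated labels alone, so label mix and level per cell cannot be told apart in it. For acinar cells it was 55.9% and 59.8% in WT, 47.6%, 54.5% and 59.8% in i4F and 26.6% and 26.2% in caerulein mice, so caerulein mice had the fewest cells without class I. For endothelial cells the share was 0.212% and 0.126% in WT, 5.19%, 3.23% and 0.355% in i4F and 3.71% and 0.847% in caerulein mice, and for ductal cells 21.2% and 22.7% in WT, 29.0%, 22.6% and 21.1% in i4F and 15.1% and 16.5% in caerulein mice. In single mice the exact 95% binomial interval, which covers counting error only, ran for instance from 47.1% to 50.2% in stellate cells of i4F 1 and from 8.45% to 12.2% in those of WT 1. Endothelial shares rest on 1, 1, 7, 6, 1, 13 and 1 cells without class I in the 7 mice.

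Means of treated minus WT mice were 31.5 percentage points for stellate cells and −31.5 for acinar cells of caerulein mice, −6.12 for ductal and 2.11 for endothelial cells (exact two-sided permutation test, p = 0.3333 each, the smallest that 2 against 2 mice allow). For i4F mice they were 21.2 in stellate (p = 0.4), −3.87 in acinar (p = 0.4), 2.28 in ductal (p = 1) and 2.75 in endothelial cells (p = 0.2, the smallest that 2 against 3 mice allow, by the same exact test). Without i4F 3 the i4F difference was 32.9 in stellate, −6.77 in acinar, 3.82 in ductal and 4.04 in endothelial cells, and only the ductal groups then overlapped. The design therefore cannot pass a threshold of 0.05 for these shares. Cells under 1000 UMIs were left out, which were 701 of 853 and 708 of 917 acinar cells in WT mice and 403 of 1542 and 442 of 1094 after caerulein, so the acinar shares describe the richer cells. A zero at this depth does not show that a cell lacks class I.

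**Figure D5:**
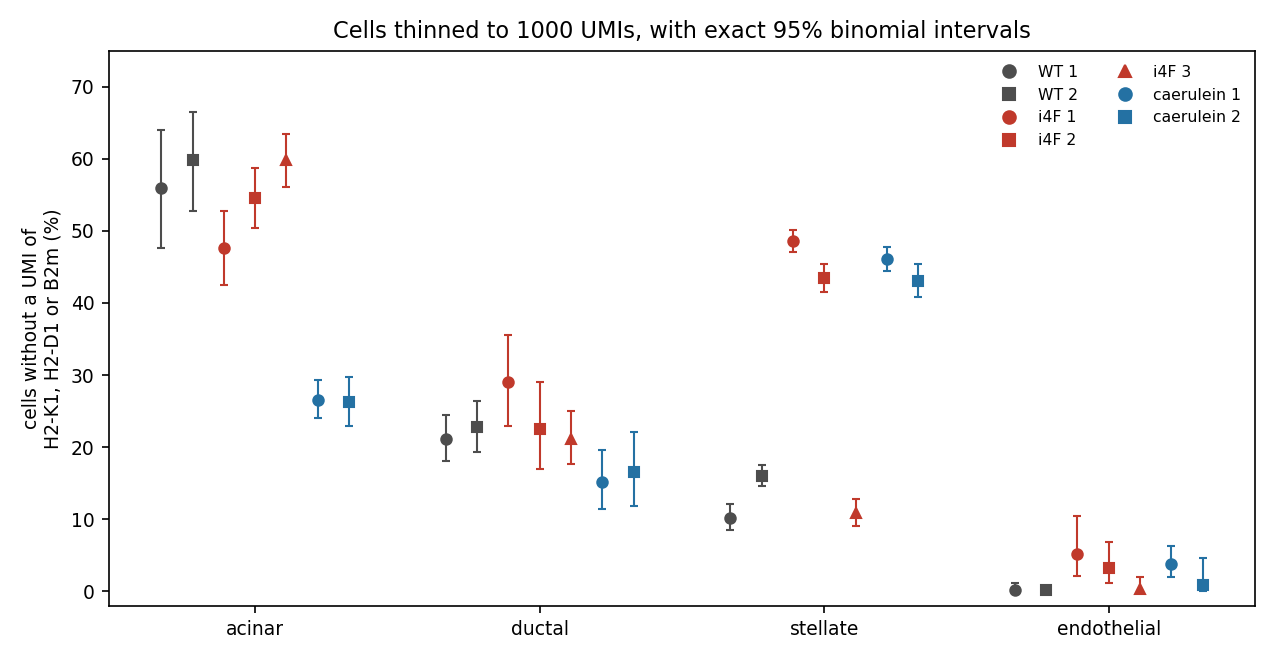
Share of cells with no UMI of H2-K1, H2-D1 or B2m in percent after thinning to 1000 UMIs, 1 point per mouse and class, with exact 95% binomial intervals over cells. In stellate cells 4 treated mice lie between 43.1% and 48.6% and the WT mice and i4F 3 between 10.2% and 16.0%. In acinar cells the caerulein mice lie lowest. The stellate class joins all labels, mostly quiescent in WT and only activated in treated mice.

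Leukocyte transcripts in the non-immune classes moved with the groups. The 11 leukocyte genes used as a filter summed to 62.5 and 181 CPM in WT, 1189, 717 and 598 CPM in i4F and 3178 and 1733 CPM in caerulein mice in acinar cells. In endothelial cells they summed to 342 and 184 CPM in WT, 1368, 1036 and 987 CPM in i4F and 9160.4 and 6332 CPM in caerulein mice, and in stellate cells to 25.9 and 81.3 CPM in WT, 536, 391.7 and 857 CPM in i4F and 1878 and 1189 CPM in caerulein mice. All 11 were detected in every mouse, except that 5 were at 0 in acinar and 3 in ductal cells of WT 1. Without the cells that held a UMI of these genes, acinar H2-D1 was at 266 and 332 CPM in WT, 387, 318 and 272 CPM in i4F and 587 and 584 CPM in caerulein mice, endothelial H2-D1 at 4727 and 4056 CPM in WT, 2184, 1837 and 3819.6 CPM in i4F and 2694 and 3169.7 CPM in caerulein mice and stellate H2-D1 at 1077 and 1025 CPM in WT, 255, 319 and 1076 CPM in i4F and 309 and 315 CPM in caerulein mice. For H2-D1 the caerulein mice stayed above the others in acinar cells, and WT mice and i4F 3 stayed above the other treated mice in endothelial and stellate cells. Acinar Tap1 was then at 7.22 and 2.98 CPM in WT, 10.9, 10.9 and 3.06 CPM in i4F and 10.0 and 20.2 CPM in caerulein mice. These levels rest on 5, 2, 6, 9, 5, 12 and 30 UMIs in turn, too few to order caerulein 1 against i4F 1 and 2. The filter cut the groups unequally. It kept 91.7% of stellate cells in WT 1 and 29.6% in i4F 1, and 82.3% of ductal cells in WT 1 and 18.6% in caerulein 1. With edgeR again 0 of 35 pairs passed (6 at an unadjusted p under 0.05 for i4F and 10 for caerulein mice, where 26.9% and 28.8% of all gene and class pairs did so). The part of leukocyte transcripts in the differences was otherwise not tested. Acinar Tapbp of i4F mice moved nearer to WT, with 28.9 and 14.9 CPM in WT, 32.7, 31.6 and 31.8 CPM in i4F and 65.9 and 85.6 CPM in caerulein mice.

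Cells with a UMI of Pou5f1 or Sox2, which may hold the induced cassette, numbered 20 and 68 among acinar and 112 and 107 among stellate cells of i4F 1 and 2, and 0 among ductal and endothelial cells of both mice and in all 4 classes of i4F 3. The 10 members summed to 1396 CPM in those acinar cells of i4F 1 against 1286 CPM in the rest, and to 884 against 986 CPM in i4F 2. In stellate cells the sums were 901 against 1061 CPM and 1182 against 1201 CPM. Both stellate sums were lower in these cells, but the 2 mice did not share a direction for the acinar sum. By gene, B2m, H2-T23, Tap1, Tap2, Psmb8 and Psmb9 were lower in these acinar cells of both mice. H2-T23, Tap1, Tap2 and Psmb9 rest there on 1, 1, 1 and 2 UMIs in i4F 1 and 8, 2, 5 and 3 in i4F 2. H2-D1 was higher in i4F 1 (539 against 475 CPM) and nearly the same in i4F 2 (377 against 368 CPM). Psmb8 was at 2.06 against 34.5 CPM in i4F 1 and 16.7 against 35.3 CPM in i4F 2, from 1 and 25 UMIs in these cells. H2-K1, Tapbp and Nlrc5 differed in direction between the mice. Cells with such a UMI were deeper (median of 22090 against 1730.5 UMIs in acinar cells of i4F 1). The part of depth was not tested.

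Immune cells served as a reference. In NK/T cells, for which only WT and i4F mice have a label, H2-D1 was at 4784 and 4147 CPM in WT and 2514, 2082 and 2714 CPM in i4F mice. All 3 i4F mice lay below both WT mice, with i4F 3 the highest of them. None of the 9 members tested passed (1.51% of all genes called, 0 members by DESeq2), with −0.76 (SE 0.25, adjusted p = 0.219) for H2-D1. At an unadjusted p under 0.05 there was 1 member, and 512 of all 3574 genes tested. In macrophages H2-T23 was at 234 and 147 CPM in WT, 129, 161 and 193 CPM in i4F and 44.9 and 36.8 CPM in caerulein mice. The class joins 2 macrophage labels in WT and 3 in treated mice, in shares that differ between groups: 45 and 418 of the cells of WT 1 and 2 carried the label macrophages 1, against 2921, 2735 and 183 in i4F and 3890 and 2076 in caerulein mice. Under that label alone H2-T23 was at 156, 125, 127, 164, 158, 44.9 and 34.0 CPM in the 7 mice, WT first and caerulein last. The same name need not mark the same cells in each condition, and cell makeup and level per cell cannot be told apart in this class. The caerulein mice lay under every other mouse, and the gene fell by 2.14 (SE 0.32), with an adjusted p of 0.0328. It was the only one of 10 members that passed there (5.66% of all genes called), and DESeq2 called 6 (6.02%). Macrophage Tap1 was at 92.2 and 67.1 CPM in WT, 64.8, 94.1 and 106 CPM in i4F and 29.96 and 37.0 CPM in caerulein mice (−1.19, SE 0.29, adjusted p = 0.0551) and H2-D1 at 2767 and 2282 CPM in WT, 2074, 2139 and 2443 CPM in i4F and 1470.0 and 1424 CPM in caerulein mice (−0.74, SE 0.24, adjusted p = 0.0964). All 10 members were lower after caerulein, with a median of −0.84 against −0.02 for all genes, and 5 passed without i4F 3 (16.4% called). Without i4F 1 the count of members called after caerulein was 0 (0.109% of all genes called). With the series of library names as a term it was also 0 (0.604%). Leaving out a WT or caerulein mouse leaves 1 mouse in its group, and the calls were lost there as well, with fewer genes of any kind passing. Between i4F and caerulein mice 2 of 10 members passed in macrophages, both higher in i4F mice (1.67% of all genes called): H2-T23 (2.01, SE 0.30, adjusted p = 0.0445) and Tap1 (1.44, SE 0.27, adjusted p = 0.0493). DESeq2 called 7 members there and 3.55% of all genes. The edgeR count was 0 without i4F 1 (0.0272% of all genes called) or i4F 2 (0.00908%), 4 without i4F 3 (10.1%) and 0 with the series of library names as a term (0%). Leaving out a WT or caerulein mouse leaves 1 mouse in its group, and fewer members and fewer genes of any kind passed there. In i4F mice 0 of 10 passed in macrophages (0.00828% of all genes called, 0 members by DESeq2), and 1, Tap2, without i4F 3 (12.4% called). At an unadjusted p under 0.05 there were 2 members with all 7 mice, and 2401 of all 12077 genes tested.

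The other classes were described by level. Endocrine cells carried H2-D1 at 525 and 501 CPM in WT, 526, 818 and 585 CPM in i4F and 774 and 613 CPM in caerulein mice from 33 to 179 cells per mouse. Mesothelium, labelled in WT and caerulein mice, carried it at 2091 and 2227 CPM in WT and 951 and 1293 CPM after caerulein, and smooth muscle, labelled in treated mice, at 405, 585 and 711 CPM in i4F and 677 and 786 CPM in caerulein mice. B cells were at 2274 and 1951 CPM in WT and 1789, 1814 and 2119 CPM in i4F mice, and the caerulein cells of that label at 2058 and 1878 CPM.

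A list of 56 further genes of the pathway was read in the same fits. In stellate cells of i4F mice 9 of 50 tested rose and 0 fell, led by the peptidase Thop1 (1.68, SE 0.29, adjusted p = 0.0199), the lipid-presenting class I-like gene Cd1d1 (1.54, SE 0.25, adjusted p = 0.0186) and Sec61b, a subunit of the translocon of the endoplasmic reticulum (1.53, SE 0.30, adjusted p = 0.0241). After caerulein 8 of 50 rose there, led by Sec61b (2.31, SE 0.32, adjusted p = 0.0134), Sec61a1 (1.53, SE 0.32, adjusted p = 0.0267) and the aminopeptidase Lap3 (1.32, SE 0.29, adjusted p = 0.0310), and 2 fell, both interferon signalling factors: Stat2 (−1.38, SE 0.35, adjusted p = 0.0400) and Irf9 (−1.20, SE 0.22, adjusted p = 0.0206). The share of all genes called in this class was about as high (20.6% and 17.1%). A fit of the 2 groups alone called 110 genes of any kind for i4F mice, against 3046 with all 7 mice. For caerulein mice it called 5359, against 2532. With the series of library names as a term, 0.136% (i4F) and 0.254% (caerulein) of all gene and non-immune class pairs were called, against 6.83% and 7.18%. WT stellate cells were mostly labelled quiescent, so label mix and level per cell cannot be told apart here. Endothelial cells after caerulein gave 1 call of 44 (4.11% of all genes called), Sec61b (1.37, SE 0.30, adjusted p = 0.0414). In macrophages after caerulein, where 5.66% of all genes were called, 3 of 52 rose, Pdia3 (1.23, SE 0.25, adjusted p = 0.0425), Psmb6 (1.10, SE 0.21, adjusted p = 0.0391) and Sec61b (1.10, SE 0.23, adjusted p = 0.0440), and 5 fell, led by the class I genes H2-Q6 (−4.94, SE 0.85, adjusted p = 0.0367), H2-Q7 (−3.22, SE 0.63, adjusted p = 0.0403) and Cd1d1 (−2.36, SE 0.43, adjusted p = 0.0369). H2-Q6 and H2-Q7 are near-identical copies, between which reads may be split. Without WT 2 or either caerulein mouse 0 genes of any kind were called in this comparison (12 without i4F 1), so the calls of the list rest on these mice. Between i4F and caerulein mice 6 of 52 were higher in i4F macrophages (1.67% of all genes called), led by H2-Q6 (4.33, SE 0.80, adjusted p = 0.0493), H2-Q7 (3.16, SE 0.60, adjusted p = 0.0500) and Stat2 (1.83, SE 0.28, adjusted p = 0.0452). With the series of library names as a term or without either caerulein mouse 0 genes of any kind were called here, and 3 and 1 without i4F 1 or i4F 2. No gene of the list was called in acinar (46 tested) or ductal cells (47 tested) in any comparison, or for i4F against WT in endothelial cells, macrophages or NK/T cells.

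Over 92 sums of mouse and label, which share libraries, the members' log2(CPM + 1) values correlated with each other with Pearson's r from 0.23 (Nlrc5 with Tap2) to 0.89 (Psmb9 with Psmb8), as a description. Outside the members and the pathway list, the genes most like the members' mean among 6083 candidates with a mean of at least 20 CPM were Sp110 (r = 0.7996), Sp100 (0.761), Cd274 (0.760), Fli1 (0.757) and Tmed5 (0.754). Cd274 encodes the T cell inhibitor PD-L1.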

How the data were processed

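Single-cell libraries of pancreas (10x Chromium 3′ v3) from 7 mice were used. The authors aligned reads with Cell Ranger (version not given in the sources used here) to GRCm38 (mm10), removed cells under 150 genes or over 5% mitochondrial UMIs, used SoupX against free RNA, and clustered and labelled cells with Seurat. The deposited tables hold whole UMI counts per gene and cell, 1 table per condition, and the deposited cell tables give the percent of mitochondrial UMIs and the labels. Whether the counts were taken before or after SoupX is not stated. How doublets were treated is not given in the sources used here, and no doublet caller was run.

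Labels were joined into classes, and UMIs of a gene were summed per mouse and class with at least 20 cells in each mouse. Where a table does not list a gene, its count was taken as 0. Sums were tested with edgeR 4.0.16 in R 4.3.3 (quasi-likelihood, TMM, filterByExpr, Benjamini-Hochberg adjustment over all genes of a class, threshold 0.05). Each class had 1 fit of 3 groups and 7 mice, except NK/T cells, whose fit held WT and i4F mice only. Inequality among 4 classes was tested with the mouse as a block. Shares of cells were compared by exact permutation of mice after thinning to 1000 UMIs. The fits were tested on simulated data. Alternatives were DESeq2 1.42.0, other normalization, filters, mice and cells. All members are named in each of the 4 non-immune classes tested, and of the pathway list at most 3 genes per direction and class, those with the largest change among the called. Members and lists were chosen with earlier results of these data known. Promoters are RefSeq sequences of GRCm38.p6. Each library is 1 mouse, and p-values of the fits per class and of the permutation tests measure the spread between mice. In the test among classes they measure the spread left once each mouse's own level is taken out. Caerulein mice occur only in the AM series of library names and i4F mice only in the AL series, with 1 WT mouse in each. Same-numbered mice did not deviate together (correlations of −0.359 to 0.126 over 24 pairs).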

Additional observations from a re-analysis of the deposited data

Results flagged for a closer look

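The test among acinar, ductal, stellate and endothelial cells (edgeR's quasi-likelihood F-test, Benjamini-Hochberg adjustment) found the caerulein difference unequal for 9 members, where 21.2% of all genes were called. The adjusted p was 0.0016 for Tap1, 0.00255 for H2-T23, 0.00328 for Tapbp, 0.00407 for Psmb8, 0.00571 for Psmb9, 0.0171 for B2m, 0.0172 for H2-D1, 0.0284 for Tap2 and 0.0488 for H2-K1. In each of the 9 the difference in endothelial cells was below that in acinar cells, with values relative to acinar cells from −3.19 (log2) for Tap1 to −1.09 for B2m. As given above, the WT acinar levels of Tap1, H2-T23 and Psmb9 rest on few UMIs, and the caerulein result rests on all WT and caerulein mice. The i4F difference was unequal for Psmb9 (adjusted p = 0.0301), Tapbp (0.0306) and Tap1 (0.0491), where 15.9% of all genes were called. Their endothelial differences were −1.09, −1.71 and −1.03 relative to acinar cells. Leukocyte transcripts and the mix of labels moved with the groups in these classes, and their part in the inequality was tested only by leaving out cells with a leukocyte UMI. After that 7 members passed for caerulein (15.8% of all genes) and 1 for i4F mice (9.71%). The values are relative to an acinar class whose 8 ductal markers summed to 2484 and 1629.5 CPM in WT, 12160.0, 9715 and 3798 CPM in i4F and 13576 and 15336 CPM in caerulein mice. Amy2a5 of that class was at 2196 and 5420.5 CPM in WT, 107, 292 and 2342 CPM in i4F and 102 and 45.4 CPM in caerulein mice. The part of this shift was not tested.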

How the results depend on the processing

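Pairs of member and non-immune class called (0 in each comparison with all 7 mice) numbered 0 to 19 for i4F against WT, 0 to 16 for caerulein against WT and 0 to 6 for i4F against caerulein when 1 mouse was left out, the highest each time without i4F 3 (33.0%, 27.9% and 10.2% of all gene and class pairs). The share of all pairs called is given in brackets, for the ranges above beside the highest count only. For i4F mice they were 3 without the filter on low counts (9.18%) and 16 with the replicate block (28.1%). With activated stellate labels alone they were 2 (21.3% of stellate genes). For caerulein mice they were 3 with DESeq2 (5.93%), 2 without TMM (7.16%) and 7 without the filter (9.62%). They were 13 in a fit of the 2 groups alone (26.3%) and 13 with the replicate block (22.9%). With the numbers of the caerulein mice crossed they were 22 (38.5%, added after the data were seen). With activated labels alone the caerulein count was 1 (21.5% of stellate genes). Between i4F and caerulein mice they were 2 without the filter (3.87%) and 5 with the replicate block (6.87%). In immune classes, i4F against WT gave 1 with the replicate block (6.73%). With an i4F mouse left out it gave 0 without i4F 1 (0.691%) or i4F 2 (0.0566%) and 1 without i4F 3 (10.4%). Caerulein against WT, with 1 call, gave 6 with DESeq2 (6.02%), 4 without the filter (9.3%), 5 in the fit of 2 groups (14.5%), 3 with the replicate block (9.96%), 0 with the series of library names as a term (0.604%) and 6 with crossed numbers (19.5%). It gave 0 without i4F 1 (0.109%), 1 without i4F 2 (1.55%) and 5 without i4F 3 (16.4%). Leaving out a WT or caerulein mouse leaves 1 mouse in that group, and the call was lost there. Replicate 3 exists only for i4F mice, so the block takes i4F 3 out of the comparisons with WT by construction, and the numbers do not pair the mice.

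Members with unequal differences among classes numbered 6 for i4F mice without the filter (9.84% of all genes) and 1 without cells holding a leukocyte UMI (9.71%). They numbered 0 without i4F 1 (5.22%) or i4F 2 (2.7%) and 9 without i4F 3 (43.7%). For caerulein mice they numbered 9 without i4F 1 (22.7%), 8 without i4F 2 (19.2%) and 9 without i4F 3 (39.4%). They were fewer in both comparisons with a WT or caerulein mouse left out, which leaves 1 mouse in that group. The i4F difference in the share of cells without class I turned to 0.789 percentage points in acinar cells without a leukocyte UMI and to −0.0879 in ductal cells without i4F 1 (range −0.0879 to 3.82), the caerulein difference in ductal cells to 0.566 without thinning, and the i4F difference in endothelial cells to 0 at 2000 UMIs. Among other moves over 1.5 times, the i4F difference went in acinar cells to −13.8 at 2000 UMIs and −24.9 without thinning (−3.87 at 1000 UMIs) and in stellate cells to 3.68 without thinning (21.2 at 1000 UMIs), and the caerulein difference went in stellate cells to 18.9 at 2000 UMIs and 4.47 without thinning (31.5 at 1000 UMIs). In endothelial cells it went from 2.11 to 5.95 at 500 UMIs, 0.243 at 2000 UMIs, 0.585 without thinning, 0.678 without caerulein 1 and 3.55 without caerulein 2. With a mouse left out, the i4F difference in acinar cells was −0.689 without i4F 1, −1.92 without WT 2 and −6.77 without i4F 3, that in stellate cells 14.0 without i4F 1 and 32.9 without i4F 3, and that in endothelial cells 1.62 without i4F 1. The causes were not tested. With 2 or 3 mice a group and few cells over 1000 UMIs in WT acinar cells, small differences were not detectable.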

Other observations

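Interferon genes and NK receptors of class I were looked up by level, with no test. Ifng, which encodes interferon gamma, was at 394 and 364 CPM in NK/T cells of WT and 67.0, 56.2 and 58.9 CPM in those of i4F mice. Ifnb1, which encodes interferon beta, was at 147 and 129 CPM in macrophages of WT, 36.6, 23.6 and 93.5 CPM in i4F and 27.5 and 30.2 CPM in caerulein mice, so that i4F 3 lay nearest to WT. Klra4, which encodes the activating receptor Ly49D and has near-identical relatives in the Ly49 family, was at 285 and 193 CPM in WT and 0, 13.2 and 27.98 CPM in i4F NK/T cells, and Klrd1, the CD94 partner of NKG2 receptors, at 252 and 137 CPM against 92.7, 116 and 81.7 CPM. These levels depend on the mix of NK and T cells under the joint label, which was not resolved. Of the 8 NK receptors of class I looked up, only Klra4 and Klrd1 are given, so they do not show how the set moved.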
